A study of Caenorhabditis elegans with 9 samples.

Results

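The genes described here build germ granules or carry out small RNA silencing in Caenorhabditis elegans. They are Argonaute proteins, RNA interference (RNAi) factors and germ granule components, listed by name. Each gene was read by the brightest probe set among those that the platform's annotation assigns to that gene alone, which gave 45 measured genes of 47 listed names, out of 17118 genes read this way on the array. The name mut-2 is an older name of rde-3, which was measured. The other name without a probe set of its own, ppw-1, shares 1 probe set with sago-2 and was not used. The values are deposited log2 array signals from whole starved larvae of the L1 stage. Larvae were collected after 48 h in sterile buffer, on 3 arrays per strain, labelled as biological replicates: ogt-1(ok430), mutant in the O-GlcNAc transferase gene, oga-1(ok1207), mutant in the O-GlcNAcase gene, and the wild type. The transferase attaches a single sugar, O-GlcNAc, to intracellular proteins, and the O-GlcNAcase takes it off again. Each mutant strain carries 1 deletion allele, and animals of every strain were starved alike, so the arrays hold no fed larvae.

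Germ granules, called P granules in the worm, are droplets of RNA and protein that sit at the nuclear pores of germ cells. They concentrate helicases, scaffold proteins and Argonautes, the proteins that bind small RNAs and use them to find matching transcripts. In the worm a primary small RNA, such as a piRNA held by the Piwi protein PRG-1 or a product of Dicer, marks a target. RNA-dependent RNA polymerases then copy the target into secondary small RNAs, which load onto other Argonautes in the cytoplasm and the nucleus. A newly hatched larva holds only its primordial germ cells, so whole-animal RNA reads germline genes against a large somatic background.

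The Piwi gene prg-1 was lower in both mutants, by more than 2-fold. The germ granule helicase gene glh-1 was called lower in ogt-1, by a smaller step. It lost that call when any ogt-1 or wild type array was left out. A gene is called here at a Benjamini-Hochberg adjusted p under 0.05 over all 22548 probe sets tested with limma. In ogt-1 against wild type 2 of 45 genes were called, or 4.44%, where 3.91% of all probe sets were called. Both were lower, where 2.12% of all probe sets were called lower and 1.79% higher. In oga-1 against wild type 1 of 45 was called, or 2.22%, where 1.93% of all probe sets were called. It was lower, where 1.21% of all probe sets were called lower and 0.727% higher. Between oga-1 and ogt-1, 0 of 45 were called by limma, where 0.514% of all probe sets were called. In that comparison 5 had an unadjusted p under 0.05, or 11.1%, where 5.22% of all probe sets did, counting both directions. All 5 were higher in oga-1. The share of all probe sets in each direction at that unadjusted limit was not counted. At an adjusted p under 0.05, a stricter limit, 0.146% of all probe sets were called higher and 0.368% lower in that comparison. The called shares of the 45 genes lie near those of all probe sets. In oga-1 and wild type, same-numbered arrays deviated together, and a fit of these 2 strains with replicate number as a block called 2 of 45 genes, or 4.44%, where it called 5.84% of all probe sets. Without adjustment, a p under 0.05 was reached by 15 of 45 genes in ogt-1, or 33.3%, against 16.7% of all probe sets, and by 3 in oga-1, or 6.67%, against 14% of all probe sets. The median change over the 45 genes was -0.030 in ogt-1 against wild type, 0.041 in oga-1 against wild type and 0.026 in oga-1 against ogt-1 (log2). Over all probe sets the medians were 0.0053, 0.0090 and 0.0016. Both mutants are compared with the same wild type arrays, and the direct comparison uses the mutant arrays again, so these comparisons are not independent. A change smaller than 0.25 (log2) was fitted for 28 of 45 genes in ogt-1, for 41 in oga-1 and for 37 between the mutants.

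**Figure D1:**
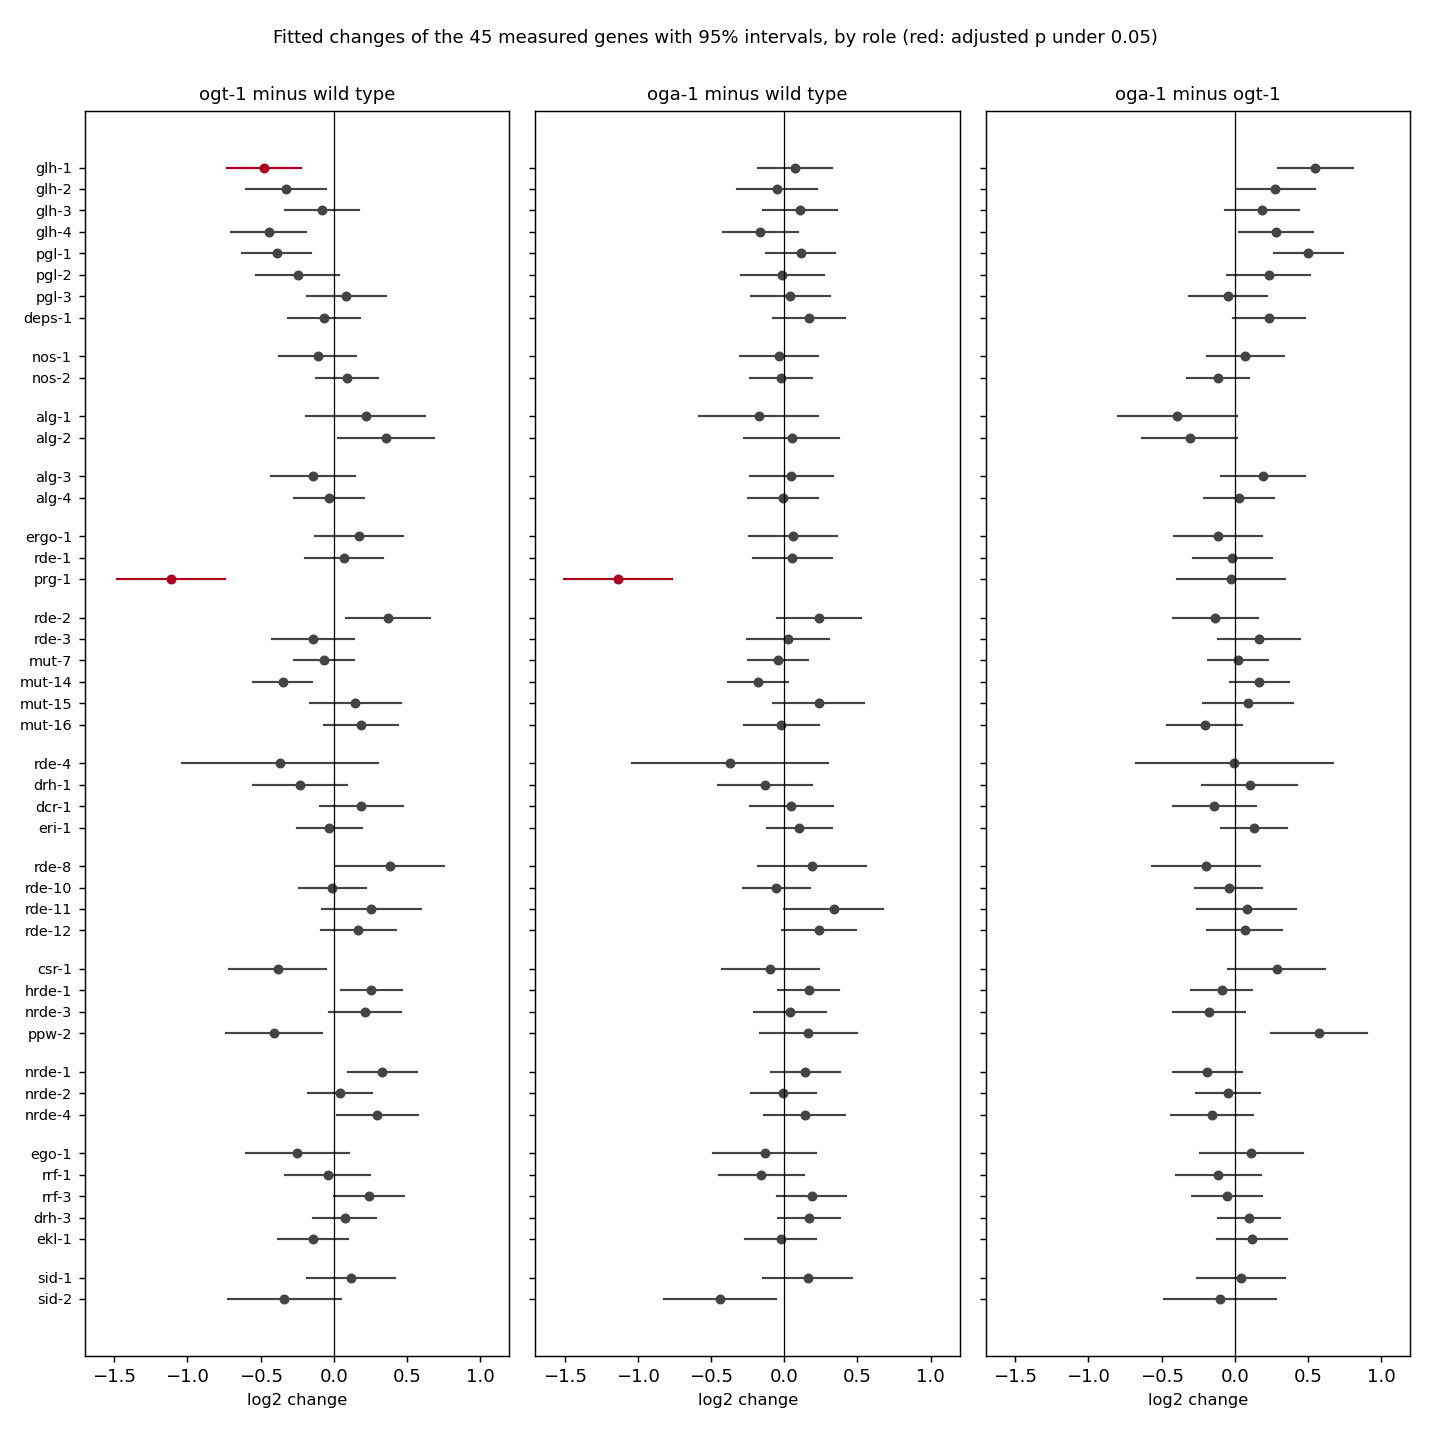
Fitted log2 changes of the 45 measured genes, grouped by role, with 95% intervals in ogt-1 minus wild type (left), oga-1 minus wild type (middle) and oga-1 minus ogt-1 (right). Red marks an adjusted p under 0.05: glh-1 and prg-1 in the left panel, prg-1 in the middle panel and none in the right panel.

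The 9 arrays share a mean of 7.36 (log2), and having 3 per strain limits precision. The median standard error of a change was 0.123 for the 45 genes and 0.125 for all probe sets. The spread of an array's values was narrower in oga-1 replicate 2 (SD 1.91) and wild type replicate 2 (SD 1.96) than in the other arrays (SD 2.00 to 2.05). On the second axis of variation oga-1 replicate 2 also lay apart, at -36.7. The dimmer ogt-1 probe set was lower in the strain labelled ogt-1 (-0.61, adjusted p = 0.0124), and in the strain labelled oga-1 its change was -0.40 (adjusted p = 0.109), with both below all wild type arrays. The brighter ogt-1 probe set had changes of -0.22 with overlap in ogt-1 and -0.42 without overlap in oga-1 (adjusted p = 0.581 and 0.240). The 3 oga-1 probe sets had changes of -0.02, -0.05 and 0.03 in oga-1 (adjusted p from 0.953 to 0.986). In oga-1 minus ogt-1 the dimmer ogt-1 probe set differed by 0.21 and the brighter by -0.20, and neither passed. These values thus did not check the oga-1 label and did not tell the 2 mutant strains apart. Both strains are named by their labels throughout. The probe sets of 5 yeast genes, which larvae lack, read up to 6.26 (strain mean). Of the 45 genes, 40 lay above that level in every strain, mut-14 in wild type alone, and pgl-2, nos-2, alg-3 and alg-4 in none.

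Of the 45 genes the Piwi Argonaute gene had the largest change from wild type in each mutant. PRG-1 binds piRNAs in the germline and guards it against transposons and other foreign sequences. The prg-1 probe set read 8.44, 8.73 and 8.33 in ogt-1, 8.76, 8.05 and 8.61 in oga-1 and 9.60, 9.63 and 9.61 in wild type (log2). All 6 mutant arrays lay below all 3 wild type arrays, and the wild type arrays were almost equal, with an SD of 0.016. The fall was 2.16-fold in ogt-1 (log2 change -1.11 ± 0.17, SE, n = 3, limma adjusted p = 0.00375) and 2.20-fold in oga-1 (-1.14 ± 0.17, adjusted p = 0.00833). It passed in both mutants under each of 18 other fits, with log2 changes from -1.23 to -1.03 in ogt-1 and from -1.28 to -0.92 in oga-1. The mutants differed from each other by -0.03 (oga-1 minus ogt-1, adjusted p = 1.00, 95% interval -0.39 to 0.34). Of the 45 probe sets read, 25 are of a kind that can bind more than 1 transcript. They include those of glh-1, glh-4, pgl-1, mut-14 and ppw-2, and that of prg-1. The related pseudogene prg-2 has a probe set of its own, which read 8.96, 8.95 and 8.67 in ogt-1, 8.97, 8.88 and 8.86 in oga-1 and 9.06, 8.99 and 8.76 in wild type. Its arrays overlapped between strains, with changes of -0.07 in ogt-1 (adjusted p = 0.853) and -0.03 in oga-1 (adjusted p = 0.959).

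**Figure D2:**
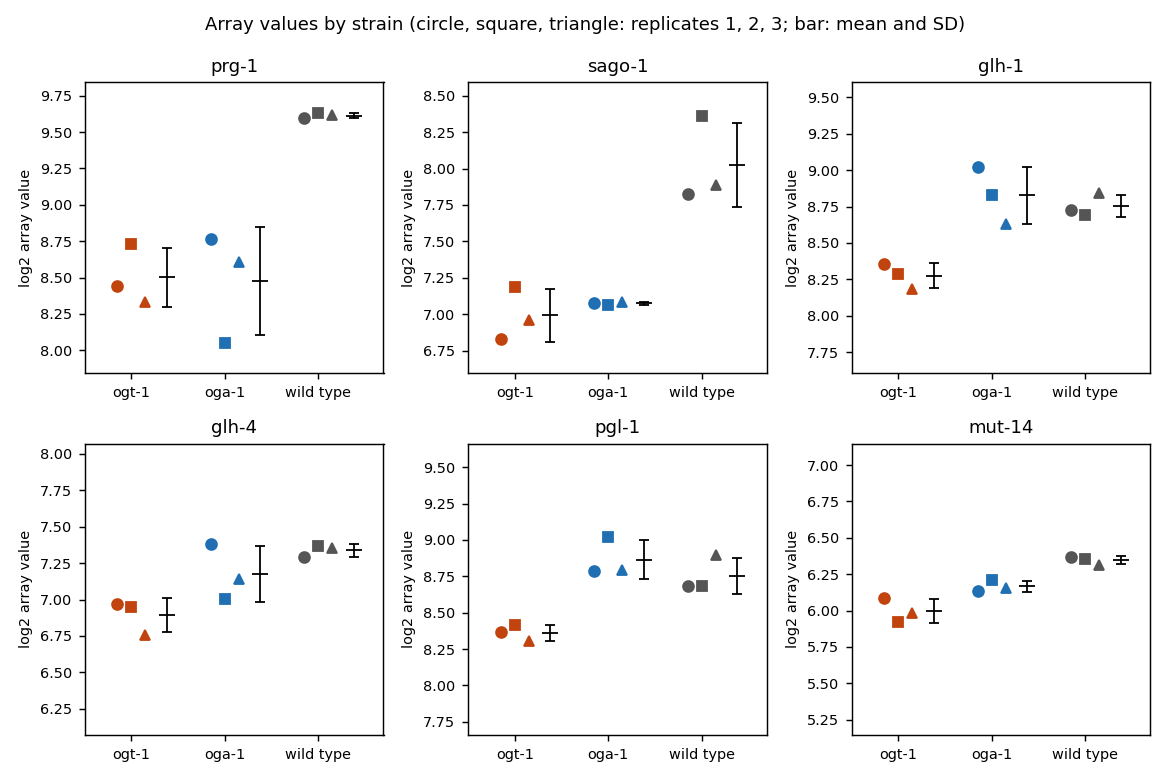
Log2 array values of prg-1, glh-1, glh-4, pgl-1 and mut-14, and of sago-1 from the wider pathway list, for ogt-1, oga-1 and wild type (3 arrays each, bar with mean and SD, each panel spanning the same log2 range). For prg-1 and sago-1 all mutant arrays lie below all wild type arrays, while for glh-1 and pgl-1 the ogt-1 arrays alone lie below the others.

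Whole-animal RNA does not tell fewer germ cells from less RNA per germ cell, for prg-1 or for any other germline gene here. The part of germ cell number in the results was not tested. A list of 39 other measured germ granule and germline genes was read the same way. Of these, 0 were called by limma in either mutant, where 3.91% of all probe sets were called in ogt-1 and 1.93% in oga-1. An unadjusted p under 0.05 was reached by 4 in ogt-1 and 3 in oga-1, where 16.7% and 14% of all probe sets reached it. The median change of the 39 genes was -0.021 in ogt-1 and 0.013 in oga-1. The mean level of this list lay between 7.72 and 7.76 in ogt-1 and between 7.77 and 7.79 in oga-1. In wild type it lay between 7.695 and 7.81, a range that holds all mutant values. Changes in that list ran from -0.59 to 0.35 in ogt-1 and from -0.32 to 0.31 in oga-1.

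The other primary Argonautes gave no call. RDE-1 is the Argonaute of the RNAi response to foreign double-stranded RNA, and its gene had changes of 0.07 in ogt-1 and 0.06 in oga-1 (adjusted p = 0.864 and 0.919). ERGO-1 binds endogenous small RNAs in oocytes and embryos. Its gene ergo-1 read 8.56, 8.43 and 8.47 in ogt-1, 8.18, 8.39 and 8.55 in oga-1 and 8.33, 8.06 and 8.55 in wild type. The strains overlapped, and the changes were 0.17 ± 0.14 and 0.06 ± 0.14 (adjusted p = 0.629 and 0.927).

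Germ granule components leaned lower in ogt-1, with 1 call. Of 8 measured genes, 1 had a change above 0 in ogt-1 (median -0.29), where 51.3% of all probe sets did. In oga-1, 5 of 8 did (median 0.06), where 52.4% of all probe sets did. GLH-1 is a Vasa-type RNA helicase of the granule. Its gene glh-1 read 8.35, 8.29 and 8.19 in ogt-1, 9.02, 8.83 and 8.63 in oga-1 and 8.73, 8.69 and 8.84 in wild type. The ogt-1 arrays lay below all others, and the oga-1 and wild type arrays overlapped. The fall in ogt-1 was 1.39-fold (-0.48 ± 0.12, adjusted p = 0.0434), against a change of 0.07 ± 0.12 in oga-1 (adjusted p = 0.876). No ogt-1 or wild type array could be left out without losing this call (replicates 1, 2 and 3 of each, adjusted p from 0.0673 to 0.179). It was also lost with quantile normalisation (0.0502), median centring (0.0628), a variance trend (0.0633) and the mean of its probe sets (0.0580). A dimmer glh-1 probe set had changes of -0.37 ± 0.12 in ogt-1 (adjusted p = 0.115) and 0.08 in oga-1 (adjusted p = 0.860).

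Another helicase of the same family, GLH-4, gave a similar reading that did not pass. The gene glh-4 read 6.97, 6.95 and 6.76 in ogt-1, 7.38, 7.0005 and 7.14 in oga-1 and 7.29, 7.37 and 7.36 in wild type. The ogt-1 arrays lay below the other 6, with a change of -0.45 ± 0.12 (adjusted p = 0.0580), and the change in oga-1 was -0.16 ± 0.12 (adjusted p = 0.633). The scaffold gene pgl-1, named here after its values were seen, encodes a protein that assembles the granule. It read 8.37, 8.41 and 8.30 in ogt-1, 8.79, 9.02 and 8.79 in oga-1 and 8.68, 8.68 and 8.89 in wild type. Its change was -0.39 ± 0.11 in ogt-1 (adjusted p = 0.0723) and 0.11 ± 0.11 in oga-1 (adjusted p = 0.755). Without oga-1 replicate 2, glh-4 and pgl-1 passed in ogt-1 (adjusted p = 0.0345 and 0.0425), as did mut-14 (0.0481), and alg-2 passed as higher (0.0483). The change of glh-4 in ogt-1 also passed when ogt-1 and wild type were fitted alone (0.0398). With all probe sets of a gene averaged, glh-4 (0.0486) and mut-14 (0.04996) passed as lower in ogt-1. The other granule genes, glh-2, glh-3, pgl-2, pgl-3 and deps-1, had changes of -0.33 to 0.09 in ogt-1 and of -0.05 to 0.17 in oga-1, and none was called.

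The direct comparison of the mutants asks whether these granule genes differ between oga-1 and ogt-1. The values of glh-1 were 0.55 ± 0.12 higher in oga-1 (log2, 95% interval 0.30 to 0.80) and those of pgl-1 0.50 ± 0.11 higher (0.27 to 0.74), with the oga-1 arrays above the ogt-1 arrays for each. Neither passed (adjusted p = 0.0855 and 0.0933). Without oga-1 replicate 3 glh-1 passed (0.65, adjusted p = 0.0238). All 3 oga-1 arrays lay above all 3 ogt-1 arrays for 4 of the 8 granule genes and below them for 0, where 4.66% of all probe sets separated upward and 5.21% downward. The change from ogt-1 was above 0 for 7 of the 8, where it was above 0 for 50.5% of all probe sets. The ogt-1 arrays are those already compared with wild type, so this is not a separate reading of these genes. The 8 genes are not replicates of one another.

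Over all 45 genes the arrays of ogt-1 and wild type did not overlap for 18 genes, or 40.0%, 9 with ogt-1 higher and 9 with ogt-1 lower. Among all probe sets 22.5% did not overlap, 11.8% higher and 10.7% lower. In oga-1 against wild type the arrays did not overlap for 5 genes, or 11.1%, 3 higher and 2 lower, where 16.5% of all probe sets did not, 8.43% higher and 8.05% lower. Between oga-1 and ogt-1 they did not overlap for 10 genes, or 22.2%, where 9.87% of all probe sets did not.

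**Figure D3:**
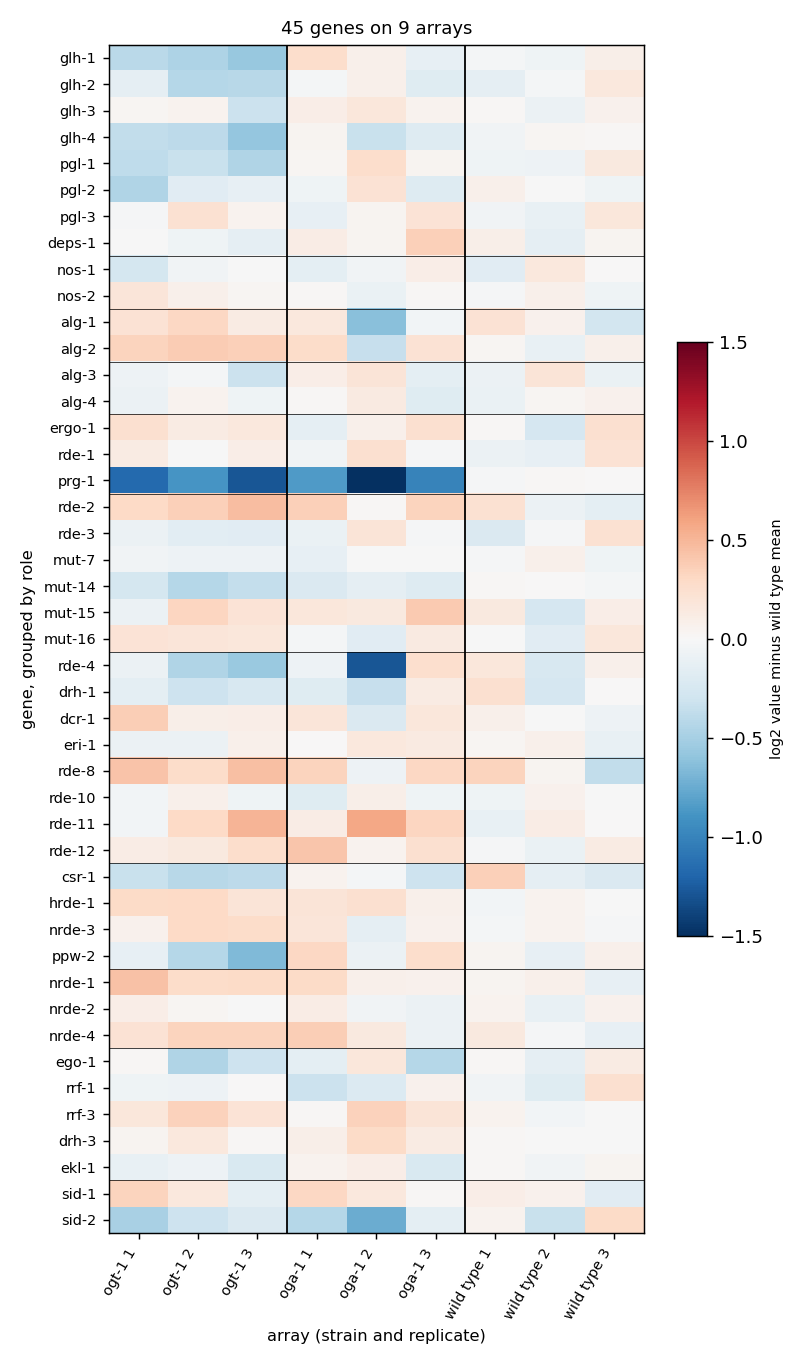
Log2 array value minus the wild type mean for 45 genes (rows, grouped by role) on 9 arrays (columns, 3 of ogt-1, 3 of oga-1 and 3 of wild type). The row of prg-1 is blue on all 6 mutant arrays, glh-1, glh-4 and pgl-1 are blue on the 3 ogt-1 arrays, and rde-4, alg-1 and sid-2 are bluest on oga-1 replicate 2.

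NOS-1 and NOS-2 are Nanos-type RNA regulators that keep germ cells from losing their identity. The gene nos-1 read 7.93, 8.15 and 8.20 in ogt-1, 8.05, 8.14 and 8.30 in oga-1 and 8.04, 8.36 and 8.21 in wild type. The strains overlapped, with changes of -0.11 and -0.04 (adjusted p = 0.763 and 0.954). The nos-2 probe set read 5.67, 5.57 and 5.52 in ogt-1, 5.51, 5.39 and 5.51 in oga-1 and 5.47, 5.57 and 5.43 in wild type. All these strain means lie below the yeast control level, so nos-2 was not shown to be above background.

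The microRNA Argonaute probe sets all had changes above 0 in ogt-1, and they differed in size and in passing. ALG-1 and ALG-2 bind microRNAs in somatic tissues and repress their target transcripts. The brightest alg-1 probe set read 10.71, 10.80 and 10.61 in ogt-1, 10.64, 9.85 and 10.44 in oga-1 and 10.70, 10.55 and 10.21 in wild type. Its strains overlapped, with changes of 0.22 ± 0.19 in ogt-1 and -0.17 ± 0.19 in oga-1 (adjusted p = 0.660 and 0.793). Without oga-1 replicate 2 its change in oga-1 was 0.06. The dimmest alg-1 probe set read 9.46, 9.32 and 9.39 in ogt-1, 9.59, 9.42 and 9.08 in oga-1 and 8.99, 8.75 and 8.46 in wild type. Here all mutant arrays lay above all wild type arrays, and the change in ogt-1 passed (0.66 ± 0.15, adjusted p = 0.0380). In oga-1 it was 0.63 ± 0.15 (adjusted p = 0.0650, and 0.00612 with replicate number as a block on these 2 strains). The middle alg-1 probe set had changes of 0.35 ± 0.15 in ogt-1 and 0.14 ± 0.15 in oga-1 (adjusted p = 0.2496 and 0.782).

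For alg-2 the brighter probe set read 9.83, 9.87 and 9.85 in ogt-1, 9.76, 9.15 and 9.71 in oga-1 and 9.52, 9.38 and 9.57 in wild type. The ogt-1 arrays lay above the wild type arrays, with a change of 0.36 ± 0.15 that did not pass (adjusted p = 0.243), and the change in oga-1 was 0.05 ± 0.15 (adjusted p = 0.946). Without oga-1 replicate 2 the change in oga-1 was 0.25. The dimmer probe set read 8.68, 8.72 and 8.56 in ogt-1, 8.54, 8.61 and 8.55 in oga-1 and 8.29, 8.11 and 8.31 in wild type. It lay higher on all 6 mutant arrays, and it passed in ogt-1 (0.41 ± 0.10, adjusted p = 0.0413) and not in oga-1 (0.33 ± 0.10, adjusted p = 0.127). Neither call of a dimmer probe set held each time an array was left out. In ogt-1, that of alg-1 did not pass when replicate 1, 2 or 3 of ogt-1, or replicate 2 or 3 of wild type, was omitted (adjusted p up to 0.128). That of alg-2 held among these fits only when oga-1 replicate 2 was the array omitted (adjusted p up to 0.185 for the other 8). The stretch of transcript that each probe set reads was not analysed here.

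**Figure D4:**
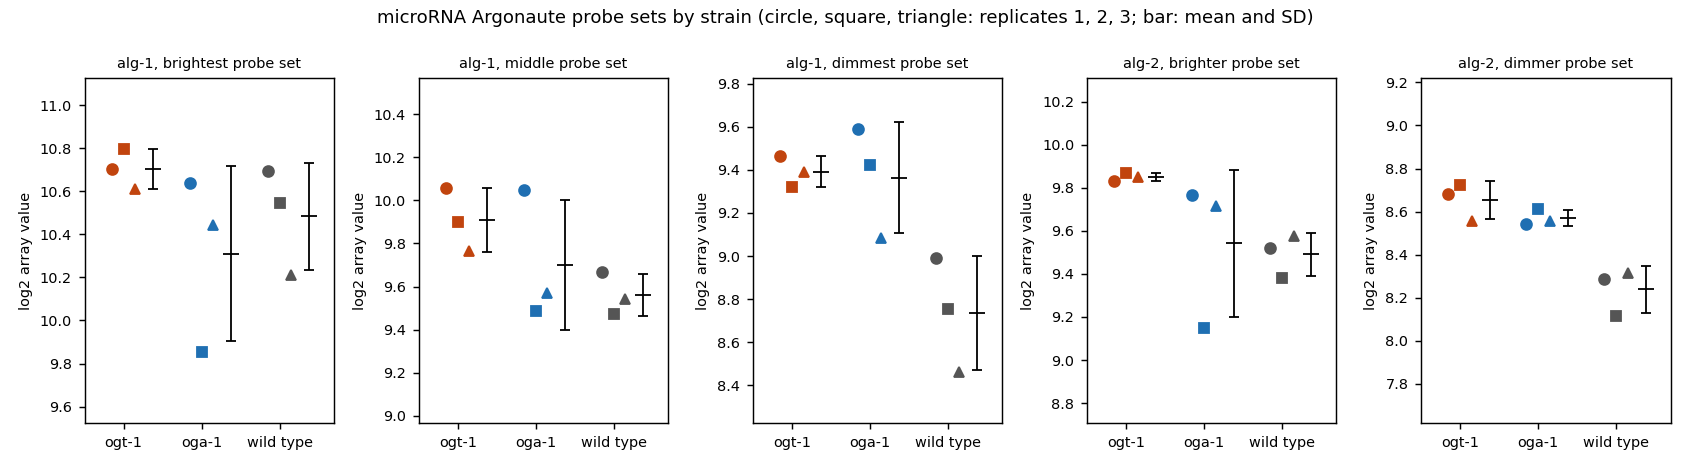
Log2 array values of the 3 alg-1 and 2 alg-2 probe sets for ogt-1, oga-1 and wild type (3 arrays each, bar with mean and SD, each panel spanning the same log2 range). On the dimmest alg-1 and the dimmer alg-2 probe set all mutant arrays lie above all wild type arrays, while on the brightest alg-1 and the brighter alg-2 probe set oga-1 replicate 2 lies lowest of the 9 arrays.

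ALG-3 and ALG-4 act in sperm formation, which starved L1 larvae have not begun. The gene alg-3 read 5.82, 5.88 and 5.58 in ogt-1, 6.002, 6.10 and 5.76 in oga-1 and 5.81, 6.09 and 5.81 in wild type. The gene alg-4 read 5.93, 6.08 and 5.96 in ogt-1, 6.04, 6.16 and 5.85 in oga-1 and 5.93, 6.06 and 6.09 in wild type. Neither was shown to be above background in any strain. Of 16 measured sperm genes, 9 likewise had all strain means at or below the yeast control level. The rest of that list had at least 1 strain mean above it.

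Secondary Argonautes bind the small RNAs that RNA-dependent RNA polymerases make, and of 4 measured genes none was called. In ogt-1 the arrays of all 4 lay apart from wild type, hrde-1 and nrde-3 higher and csr-1 and ppw-2 lower, where 22.5% of all probe sets lay apart (11.8% higher, 10.7% lower). HRDE-1 carries silencing into the germline nucleus and across generations. Its gene read 6.75, 6.76 and 6.65 in ogt-1, 6.66, 6.70 and 6.54 in oga-1 and 6.42, 6.52 and 6.46 in wild type. Both mutants lay above wild type without overlap, yet the changes of 0.26 ± 0.10 and 0.17 ± 0.10 did not pass (adjusted p = 0.179 and 0.505). A dimmer hrde-1 probe set, with all strain means at or below the yeast control level, had a change of the other sign in ogt-1 (-0.13, adjusted p = 0.707). PPW-2 is a germline Argonaute. Its gene ppw-2 read 8.59, 8.28 and 8.05 in ogt-1, 9.03, 8.63 and 8.98 in oga-1 and 8.76, 8.59 and 8.79 in wild type. The change was -0.41 ± 0.15 in ogt-1 (adjusted p = 0.178), 0.17 ± 0.15 in oga-1 (adjusted p = 0.735) and 0.57 ± 0.15 in oga-1 against ogt-1 (adjusted p = 0.258). CSR-1, which licenses germline transcripts, and NRDE-3, which carries small RNAs into somatic nuclei, had transcript changes in ogt-1 of -0.38 and 0.22 (adjusted p = 0.212 and 0.383). In oga-1 they had changes of -0.10 and 0.04 (adjusted p = 0.878 and 0.943).

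In the nucleus NRDE-1, NRDE-2 and NRDE-4 act with these Argonautes to stall transcription and mark chromatin. None of the 3 genes was called, and their changes in ogt-1 ran from 0.04 to 0.33 (median 0.30), where 51.3% of all probe sets had a change above 0. The gene nrde-1 read 9.18, 9.02 and 9.02 in ogt-1, 9.03, 8.81 and 8.81 in oga-1 and 8.78, 8.82 and 8.62 in wild type. The ogt-1 arrays lay above the wild type arrays, with a change of 0.33 ± 0.11 (adjusted p = 0.124), and the change in oga-1 was 0.14 ± 0.11 (adjusted p = 0.657). The gene nrde-4 read 9.14, 9.25 and 9.25 in ogt-1, 9.28, 9.07 and 8.83 in oga-1 and 9.07, 8.90 and 8.80 in wild type. Its changes were 0.30 ± 0.13 and 0.14 ± 0.13 (adjusted p = 0.259 and 0.734), and nrde-2 had changes of 0.04 and -0.01.

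Dicer, DCR-1, cuts double-stranded RNA and microRNA precursors, RDE-4 hands it double-stranded RNA, DRH-1 is a helicase partner, and ERI-1 is a nuclease that limits RNAi. The gene dcr-1 read 8.51, 8.23 and 8.24 in ogt-1, 8.33, 7.93 and 8.31 in oga-1 and 8.22, 8.14 and 8.06 in wild type. The ogt-1 arrays lay just above the wild type arrays, with a change of 0.19 ± 0.13 (adjusted p = 0.555), and the change in oga-1 was 0.05 ± 0.13 (adjusted p = 0.940). The gene drh-1 read 7.53, 7.37 and 7.44 in ogt-1, 7.50, 7.34 and 7.81 in oga-1 and 7.92, 7.43 and 7.68 in wild type, with overlap throughout. Its changes were -0.23 ± 0.15 and -0.13 ± 0.15 (adjusted p = 0.504 and 0.807). The largest spread of any of the 45 genes was that of rde-4 in oga-1 (SD 0.81), where replicate 2 read 7.31 and replicates 1 and 3 read 8.51 and 8.85. The rde-4 changes of -0.37 in each mutant had a standard error of 0.31 and did not pass. Without oga-1 replicate 2 the rde-4 change in oga-1 was 0.09. In ogt-1 it ran from -0.50 to -0.27 when arrays were left out in turn. The gene eri-1 had changes of -0.03 and 0.10.

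RNA-dependent RNA polymerases make the secondary small RNAs: RRF-1 mostly in the soma, EGO-1 in the germline and RRF-3 in the endogenous pathway that starts with ERGO-1. DRH-3 and EKL-1 work beside them. None of the 5 genes was called in any comparison, and their changes ranged from -0.25 to 0.24 in ogt-1 and from -0.16 to 0.19 in oga-1. The gene rrf-3 read 6.77, 6.94 and 6.81 in ogt-1, 6.62, 6.95 and 6.79 in oga-1 and 6.65, 6.56 and 6.59 in wild type. The ogt-1 arrays lay above wild type (0.24 ± 0.11, adjusted p = 0.290), and oga-1 overlapped with it (0.19 ± 0.11, adjusted p = 0.515). The gene drh-3 read 6.91, 7.03 and 6.89 in ogt-1, 6.96, 7.16 and 6.99 in oga-1 and 6.89, 6.86 and 6.86 in wild type. All mutant arrays lay above all wild type arrays, with changes of 0.07 ± 0.10 and 0.17 ± 0.10 (adjusted p = 0.810 and 0.512).

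The target processing factors RDE-8, an endonuclease, RDE-10 and RDE-11, which act as a complex, and RDE-12, a helicase, prepare targets for amplification, and none of their 4 genes was called. The gene rde-8 read 8.39, 8.23 and 8.41 in ogt-1, 8.29, 7.88 and 8.27 in oga-1 and 8.29, 7.99 and 7.59 in wild type. Its changes were 0.39 ± 0.17 and 0.19 ± 0.17 (adjusted p = 0.273 and 0.725), and its dimmer probe set had changes of 0.01 and 0.06. The gene rde-11 read 8.06, 8.39 and 8.61 in ogt-1, 8.21, 8.67 and 8.42 in oga-1 and 7.98, 8.20 and 8.09 in wild type. The oga-1 arrays lay just above the wild type arrays (0.34 ± 0.15, adjusted p = 0.353), and the ogt-1 arrays overlapped with them (0.26 ± 0.15, adjusted p = 0.471). The genes rde-10 and rde-12 had changes of -0.05 to 0.24.

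Mutator proteins gather in foci next to the P granules, where small RNAs are amplified. MUT-16 is the scaffold, MUT-7 an exonuclease domain protein, MUT-14 a helicase and RDE-3 a nucleotidyltransferase. None of the 6 measured genes was called. The gene mut-14 read 6.09, 5.92 and 5.98 in ogt-1, 6.14, 6.21 and 6.15 in oga-1 and 6.37, 6.36 and 6.31 in wild type. All mutant arrays lay below all wild type arrays, with changes of -0.35 ± 0.09 and -0.18 ± 0.09 (adjusted p = 0.0621 and 0.436), and both mutant means lie below the yeast control level. The gene rde-2 read 7.46, 7.52 and 7.63 in ogt-1, 7.52, 7.18 and 7.50 in oga-1 and 7.39, 7.07 and 7.02 in wild type. Its changes were 0.37 ± 0.13 and 0.24 ± 0.13 (adjusted p = 0.163 and 0.487). The genes rde-3, mut-7, mut-15 and mut-16 had changes of -0.14 to 0.24. Probe sets of 1 gene differed in sign, without a call, for ekl-1 (-0.14 and 0.17) and eri-1 (-0.03 and 0.07) in ogt-1. In oga-1 they did so for ekl-1 (-0.03 and 0.19), mut-7 (-0.04 and 0.02) and alg-4 (-0.0083 and 0.02).

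SID-1 is a channel that lets double-stranded RNA into cells, and SID-2 takes it up from the gut. The gene sid-2 read 8.34, 8.50 and 8.60 in ogt-1, 8.39, 8.08 and 8.67 in oga-1 and 8.87, 8.49 and 9.10 in wild type. The arrays overlapped, and its changes were -0.34 ± 0.18 in ogt-1 (adjusted p = 0.383) and -0.44 ± 0.18 in oga-1 (adjusted p = 0.275). With replicate number as a block on oga-1 and wild type alone, sid-2 passed as lower in oga-1 (adjusted p = 0.0321) beside prg-1. That fit called 1316 probe sets in all, against 436 without the block. The gene sid-1 read 7.72, 7.54 and 7.23 in ogt-1, 7.68, 7.53 and 7.40 in oga-1 and 7.48, 7.44 and 7.21 in wild type. Its changes were 0.12 ± 0.14 and 0.16 ± 0.14 (adjusted p = 0.782 and 0.717).

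A wider list of 56 other small RNA genes was read the same way, and 49 were measured. In ogt-1, 2 were called, both lower, where 3.91% of all probe sets were called. In oga-1 1 was called, lower, where 1.93% of all probe sets were called. The median changes of the 49 genes were 0.016 and -0.0049. An unadjusted p under 0.05 was reached by 9 of the 49 in ogt-1 and by 4 in oga-1, where 16.7% and 14% of all probe sets reached it. The gene called in both mutants was sago-1, which encodes an Argonaute of the secondary small RNA pathway. It read 6.83, 7.19 and 6.96 in ogt-1, 7.08, 7.07 and 7.08 in oga-1 and 7.83, 8.36 and 7.89 in wild type. All mutant arrays lay below all wild type arrays. The fall was 2.05-fold in ogt-1 (-1.03 ± 0.14, adjusted p = 0.00235) and 1.93-fold in oga-1 (-0.95 ± 0.14, adjusted p = 0.00904), and a second sago-1 probe set also passed in both (-0.74 and -0.71, adjusted p = 0.00554 and 0.0140). In oga-1 that second probe set did not pass when replicate 1 of oga-1 was omitted (adjusted p = 0.0579). The other gene, haf-6, encodes a transporter needed for efficient RNAi. It read 5.34, 5.42 and 5.60 in ogt-1, 5.73, 5.55 and 5.80 in oga-1 and 6.07, 5.84 and 6.04 in wild type, all at or below the yeast control level. Its change in ogt-1 was -0.53 ± 0.12 (adjusted p = 0.0280). Leaving out replicate 1 or 2 of ogt-1, or replicate 1 or 3 of wild type, ended that call (adjusted p up to 0.127). In oga-1 it was -0.29 ± 0.12 (adjusted p = 0.271).

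Markers of somatic tissues were read beside these genes. Of all probe sets, limma called 3.91% in ogt-1 (1.79% as higher) and 1.93% in oga-1 (0.727% as higher). An unadjusted p under 0.05 was reached by 16.7% of all probe sets in ogt-1 and by 14% in oga-1. Of 16 muscle genes, the myosin gene unc-54 rose in both mutants, by 0.76 in ogt-1 (adjusted p = 0.00939) and by 0.81 in oga-1 (adjusted p = 0.0139), and the myosin gene myo-3 rose in oga-1 (0.90, adjusted p = 0.0490). The muscle list went both ways: 6 of 16 changes were below 0 in ogt-1 and 3 of 16 in oga-1, with medians of 0.06 and 0.09. At an unadjusted p under 0.05, 4 muscle genes were higher and 1 lower in ogt-1, and 4 were higher and 0 lower in oga-1. Of 13 intestinal genes, the metallothionein gene mtl-2 rose in both, by 1.62 in ogt-1 (adjusted p = 6.73e-05) and 1.21 in oga-1 (adjusted p = 0.00185). Of the intestinal list 4 of 13 changes were below 0 in ogt-1 and 6 of 13 in oga-1, with medians of 0.03 and 0.02. At an unadjusted p under 0.05, 3 intestinal genes in ogt-1 and 2 in oga-1 were higher, and 0 were lower. None of 17 neuronal, 13 hypodermal, 16 sperm and 16 oocyte and embryo genes was called in either mutant by limma, with 1, 0, 2 and 3 at an unadjusted p under 0.05 in ogt-1 and 1, 1, 1 and 2 in oga-1. The mean level of the muscle list ranged from 11.48 to 11.66 in ogt-1, from 11.57 to 11.77 in oga-1 and from 11.35 to 11.70 in wild type. The mean level of the intestinal list ranged from 9.91 to 9.95 in ogt-1, from 9.76 to 9.87 in oga-1 and from 9.65 to 9.84 in wild type. RNA integrity was read as log2 signal of 3' minus 5' probe sets of 4 controls. The actin difference ranged from 0.477 to 0.550 in ogt-1, from 0.337 to 0.595 in oga-1 and from 0.235 to 0.774 in wild type. The Gapdh difference ranged from -0.0675 to 0.0202 in ogt-1, from -0.0401 to 0.296 in oga-1 and from -0.0171 to 0.220 in wild type, and it was highest on replicate 2 of oga-1 and of wild type. The catalase difference ranged from 0.192 to 0.649 in ogt-1, from -0.0623 to 0.678 in oga-1 and from 0.433 to 0.716 in wild type. Ubiquitin ranged from 2.73 to 2.955 in ogt-1, from 2.68 to 2.95 in oga-1 and from 2.89 to 3.003 in wild type. For catalase and ubiquitin oga-1 replicate 2 was the lowest of the 9 arrays. With replicate 2 of oga-1 and of wild type left out, prg-1 and sago-1 passed in both mutants and glh-1 did not pass in ogt-1 (adjusted p = 0.0679). The part of tissue makeup or RNA integrity in the falls of prg-1, sago-1 and glh-1 was not tested.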

How the data were processed

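RNA of 9 arrays (3 strains, 3 biological replicates each) was measured. Per the labels' protocols, Trizol-extracted total RNA (4 ug) was made into biotinylated cRNA for Affymetrix arrays. As deposited by the authors, values are summaries per probe set on a log2 scale. Arrays share a mean but not a distribution. MAS5, RMA and Partek are named in the submitters' processing notes without role.

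Without 77 control probe sets, 22548 entered the test in limma 3.58.1 (R 4.3.3; a mean per strain on all 9 arrays, eBayes, Benjamini-Hochberg adjustment within a contrast), with no filter. Of these, 20766 had 1 gene symbol, 887 several and 895 none; all single symbols are in the gene table of assembly WBcel235. The fit was tested on simulated data. Array values have no count depth.

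The genes and lists were chosen with earlier results of these data known. Values on every array are given for called genes and for the 2 genes per role with the smallest p against wild type; further probe sets of a gene are named where their change differs in sign or call (as for ekl-1, eri-1, mut-7 and alg-4); from the wider list and the tissue lists, called genes are named. Other genes given values of their own (pgl-1, csr-1, nrde-2, nrde-3, rde-1, rde-4, the oga-1 value of eri-1 and prg-2) were picked after their values were seen. The background level is the highest strain mean of 5 yeast control probe sets.

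Same-numbered arrays of oga-1 and wild type deviated together from their strain means (correlations 0.48, 0.43 and 0.36). The labels give no batch and do not say that the numbers pair arrays of different strains. For ogt-1 and wild type (-0.10, -0.02 and -0.0023) and for oga-1 and ogt-1 (0.07, 0.09 and 0.11) the correlations were weaker. Other fits dropped each array in turn, used quantile values or centred medians, removed the dimmest 25% or 50%, blocked by replicate number, fitted 2 strains alone, let variance follow level, took 0.01 as threshold or averaged all probe sets of a gene. One more was added after seeing the data, leaving out wild type replicate 2 and oga-1 replicate 2.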

Additional observations from a re-analysis of the deposited data

How the results depend on the processing

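In ogt-1 against wild type the 2 called genes became 1, prg-1, with quantile normalisation, median centring, a variance trend, an adjusted p under 0.01 and the replicate block on 2 strains alone. They became 3 when the 2 strains were fitted alone, with glh-4 added (adjusted p = 0.0398). Averaging all probe sets of a gene also gave 3, prg-1, glh-4 (0.0486) and mut-14 (0.04996), without glh-1. All of these were lower. Leaving out arrays gave 1 to 6 called genes, the 6 without oga-1 replicate 2 (5 lower, 1 higher). The median change of the 45 genes (-0.030) became 0.0061 when all probe sets of a gene were averaged and 0.0059 with median centring, and ranged from -0.030 to 0.018 when arrays were left out. In oga-1 against wild type the 1 called gene became 2 with the replicate block on 2 strains alone, and 1 was called when any array was left out. Between oga-1 and ogt-1, 0 to 1 were called when arrays were left out, the 1 without oga-1 replicate 3. The replicate block on all 9 arrays changed no call of the 45 genes. Over all probe sets it moved the calls of oga-1 against wild type to 749, and on 2 strains alone to 1316, against 436 without it. Between oga-1 and ogt-1 it moved them to 176 and 174, against 116. On ogt-1 and wild type alone, whose same-numbered arrays did not deviate together, it ended the calls of glh-1 (adjusted p = 0.0619) and of the dimmer alg-2 probe set (0.104). No value that was called changed sign under any alternative run. The dim filters kept 44 and 35 of the 45 genes. The number of arrays limits what could be called, and the 5 genes with strain means at the yeast control level limit what can be read as expression.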

Other observations

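The 45 genes varied more among oga-1 arrays than among those of the other strains: the median SD was 0.167 in oga-1, 0.0874 in ogt-1 and 0.111 in wild type, and 24 of the 45 genes had their largest SD in oga-1. Over all probe sets the median SDs were 0.151, 0.111 and 0.139. On oga-1 replicate 2, 10 of the 45 genes had their lowest value of the 9 arrays and 13 their highest, so that this array held an extreme for more of these genes than any other array. Among them were the low readings of alg-1, alg-2, rde-4 and prg-1. Without that array the fall of prg-1 in oga-1 still passed. Extremes and largest SDs were not counted over all probe sets, so these counts are not shown to be particular to the 45 genes.

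The probe set shared by ppw-1 and sago-2, Argonaute genes, averaged 9.02 on the ogt-1 arrays, 9.37 on the oga-1 arrays and 8.93 in wild type, with changes of 0.09 and 0.44 (adjusted p = 0.887 and 0.262). It cannot be assigned to either gene. A probe set shared by nos-2 and T02G5.11 had changes of -0.03 in each mutant, and 1 shared by mut-14 and ZC317.1 had -0.25 in ogt-1 (adjusted p = 0.251) and -0.09 in oga-1 (adjusted p = 0.818).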
